A study of Mus musculus with 12 samples.

Results

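Cell cycle and DNA replication genes were followed in the liver of mice exposed to secondhand smoke (SHS). The 37 genes were taken as a list: the cyclins and cyclin-dependent kinases, regulators that set entry into the cycle, the licensing and fork proteins of DNA replication, the enzymes that make deoxynucleotides, and genes of mitosis and proliferation. All probe sets of the array that name 1 of these genes alone in the platform annotation were collected, which gave 84 of 45037 probe sets and 36 of 18193 genes. Another 2 probe sets name a gene of the list together with other genes and were not used. Of the 37 genes, Ccnb1 had no probe set that names it alone. Liver RNA came from male C57BL/6 mice, adult at the start and kept on a standard diet, with 1 mouse per Affymetrix mouse genome array and 4 arrays per group. The SHS4m+1m recovery mice (replicates 70 to 73) were exposed whole-body to SHS for 4 months and then kept in clean air for 1 month. The SHS4m mice (replicates 66 to 69) were killed at the end of the 4 months of exposure. The controls (replicates 1 to 4) were sham-exposed to clean air. The paper describes sham mice with and without the recovery month, but the labels do not say which of these the 4 control arrays hold, so 1 month of age cannot be told apart from the treatment for at least 1 of the SHS groups.

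Most hepatocytes of an adult liver are quiescent and re-enter the cycle after loss of tissue. D-type cyclins, induced by mitogens, open the way through G1 by releasing E2F transcription factors from the retinoblastoma proteins. E2F then turns on cyclin E, the MCM helicase that licenses replication origins, and the enzymes that supply deoxynucleotides. CDK1 with cyclins A and B drives mitosis, and WEE1 holds CDK1 inactive by phosphorylating it. The genes used in mitosis are kept silent outside the cycle by the DREAM complex, which binds a short element called the cell cycle homology region. In whole liver, fewer cells of a type and less RNA per cell cannot be told apart.

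Promoters are shown for 3 genes whose signals differed between the groups, because the cell cycle elements in them can be read directly. The sequences are those of RefSeq (build GRCm38.p6), run 5′ to 3′ on the strand of the gene, and span 250 bases before to 50 bases after the start. Capitals mark 3 elements searched on both strands, namely the cell cycle homology region (TTTGAA), the CCAAT box (CCAAT, or ATTGG on the other strand) and the E2F element (TTTCCCGC, TTTCGCGC, TTTGCCGC or TTTGGCGC). The promoter of the mitotic kinase gene Cdk1 lies at chr10:69352863-69353162 on the minus strand, that of the helicase subunit gene Mcm5 at chr8:75109259-75109558 on the plus strand, and that of the ribonucleotide reductase subunit gene Rrm2 at chr12:24708004-24708303 on the plus strand.
Cdk1: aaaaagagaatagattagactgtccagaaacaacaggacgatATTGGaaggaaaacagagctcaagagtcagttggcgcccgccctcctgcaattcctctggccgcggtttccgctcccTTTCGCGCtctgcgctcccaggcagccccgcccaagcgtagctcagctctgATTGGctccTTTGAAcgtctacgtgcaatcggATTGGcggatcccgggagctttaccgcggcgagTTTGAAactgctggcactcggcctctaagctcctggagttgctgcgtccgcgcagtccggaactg
Mcm5: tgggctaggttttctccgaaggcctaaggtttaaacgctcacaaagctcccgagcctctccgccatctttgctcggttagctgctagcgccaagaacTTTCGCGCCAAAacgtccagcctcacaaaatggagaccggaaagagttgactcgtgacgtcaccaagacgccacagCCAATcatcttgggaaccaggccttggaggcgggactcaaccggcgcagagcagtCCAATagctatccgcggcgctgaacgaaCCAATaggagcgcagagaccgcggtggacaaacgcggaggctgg
Rrm2: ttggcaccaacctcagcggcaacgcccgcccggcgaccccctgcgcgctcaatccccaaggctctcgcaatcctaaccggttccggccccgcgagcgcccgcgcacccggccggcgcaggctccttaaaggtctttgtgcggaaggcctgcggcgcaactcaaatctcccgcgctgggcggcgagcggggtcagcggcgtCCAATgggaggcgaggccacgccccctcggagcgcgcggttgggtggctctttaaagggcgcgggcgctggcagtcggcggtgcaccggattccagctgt
The Cdk1 window held 2 copies of TTTGAA, 3 CCAAT boxes, all on the other strand, and 1 E2F word. In the Mcm5 window there were 3 CCAAT boxes, and 2 E2F words on opposite strands overlapped in a single run. That of Rrm2 held 1 CCAAT box and none of the other letters, and the 300-base window of Tk1 held none of the 3 elements. Promoters of Wee1, Ccnd1 and Mcm4 were not matched. Of the 37 genes, 30 had a promoter in the table. TTTGAA was found in 11 of the 30 (36.7%), against 18.1% of all 27025 promoters of the same length. CCAAT was found in 22 (73.3%, against 37.9%) and an E2F word in 8 (26.7%, against 2.32%). These are matches of letters and say nothing of which factor was bound.

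On these arrays several short probes of a transcript make up a probe set, whose signal is a linear intensity. Signals below 32 were raised to 32, called the floor here, before taking log2, so a gene near the floor can show only part of a change. Each gene was read by its brightest probe set. Levels of different genes are not compared, since probe sets differ in brightness. Differences were tested with limma in 1 model of all 12 arrays, and a gene was called where the p, adjusted by Benjamini-Hochberg over all 45037 probe sets, was under 0.05. Every such p is two-sided. The threshold given by the study was also used, an unadjusted p under 0.05 with at least a 2-fold change. Both comparisons with controls share the same 4 control arrays, so their results are given side by side and are not independent.

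Of the 36 genes, 21 were above the floor on all 12 arrays, 14 were at the floor on some arrays and 1, the mitotic kinase gene Aurkb, on all 12. Its other probe set was also at the floor throughout. The spindle checkpoint kinase gene Bub1 was at the floor on 11 arrays and the licensing gene Cdc6 on 10. Over the 84 probe sets, 8 were at the floor on all arrays, 39 on some and 37 on none. Of the 12 genes of mitosis and proliferation, 10 were at the floor on at least 1 array and 10 stayed under a signal of 128 on every array. Each SHS4m+1m recovery array had 5 to 8 of the 36 genes at the floor, each SHS4m array 6 to 10 and each control array 5 to 6.

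**Figure D1:**
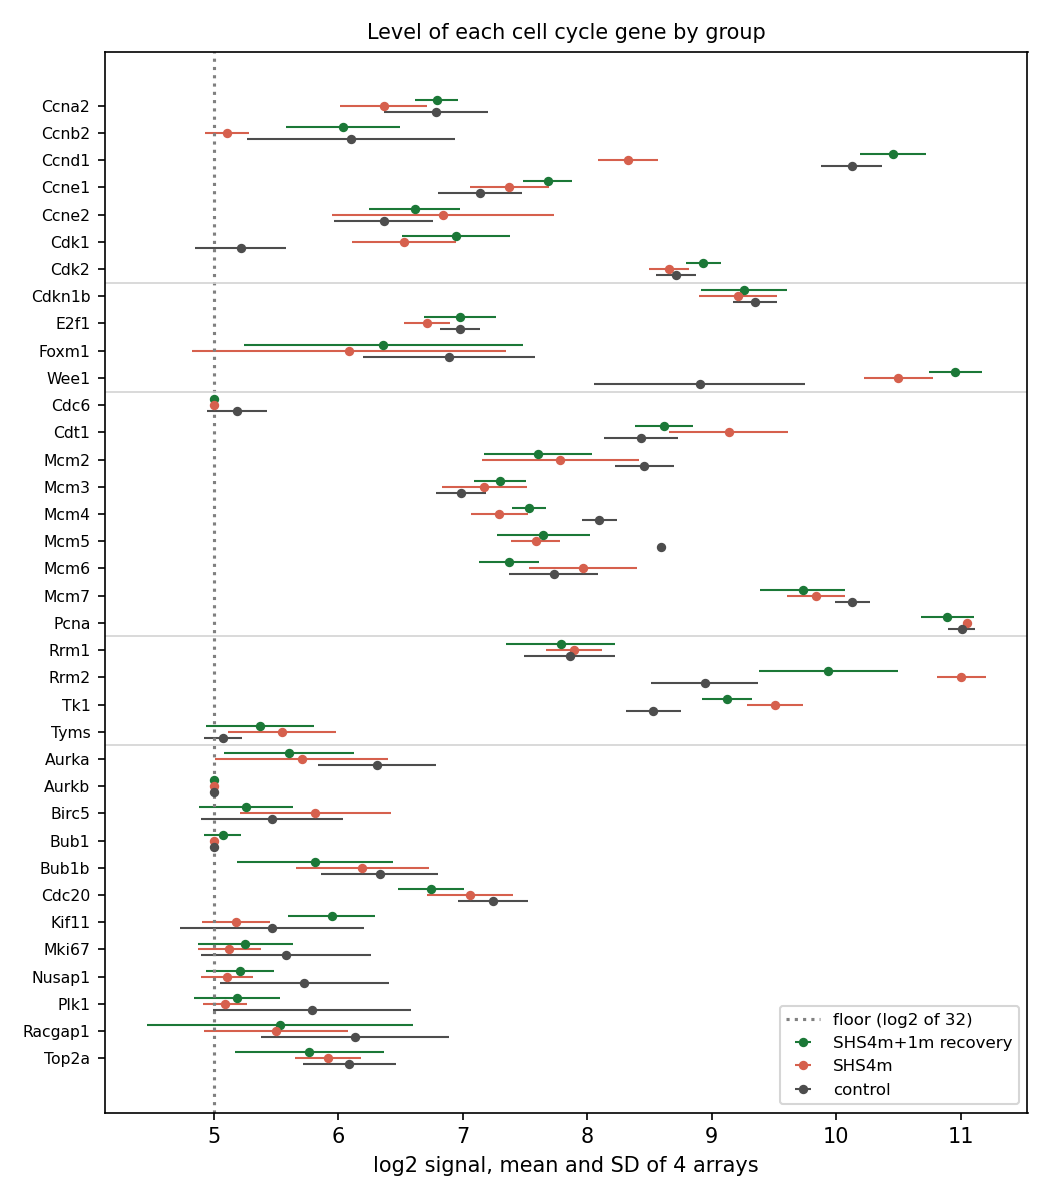
Log2 signal (x axis) of the 36 genes (y axis, grouped by role from cyclins at the top to mitosis at the bottom) in SHS4m+1m recovery, SHS4m and control livers. Points are means of 4 arrays, bars are SD and the dotted line is the floor (log2 of 32, which is 5). Ccnd1 in SHS4m livers and Wee1, Cdk1 and Mcm5 in controls stand apart from the other groups, and most mitosis genes lie near the floor.

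Of the 36 genes, 4 were called between SHS4m+1m recovery mice and controls, the kinase genes Cdk1 and Wee1 higher and the helicase genes Mcm4 and Mcm5 lower. That is 11.1% of the 36, against 2.52% of all genes read by their brightest probe set (2.07% of all probe sets). Of all genes, 1.37% were called higher and 1.14% lower in this comparison. Between SHS4m mice and controls 7 were called (19.4%, against 7.47% of all genes and 5.4% of all probe sets). Cdk1, Wee1, Rrm2 and Tk1 were higher, and Ccnd1, Mcm4 and Mcm5 were lower, where 3.73% of all genes were called higher and 3.74% lower. Between SHS4m+1m recovery and SHS4m mice only Ccnd1 was called, higher after recovery (2.78%, against 3.68% of all genes, 2.01% higher and 1.68% lower, and 2.54% of all probe sets). At the threshold of the study 2 of the 36 genes passed in recovery mice against controls (1.21% of all genes did), 5 in SHS4m mice against controls (2.81% of all genes) and 2, Ccnd1 and Rrm2, between the SHS groups (1.93% of all genes). The median log2 difference over the 36 genes was -0.08 for recovery mice against controls, -0.16 for SHS4m mice against controls and 0.04 for recovery against SHS4m mice, and over all genes it was 0, -0.01 and 0. The arrays of the 2 groups compared did not overlap for 8 genes in either comparison with controls, against 9.56% of all genes for recovery mice and 15.5% for SHS4m mice, and for 2 genes between the SHS groups, against 11.3%.

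**Figure D2:**
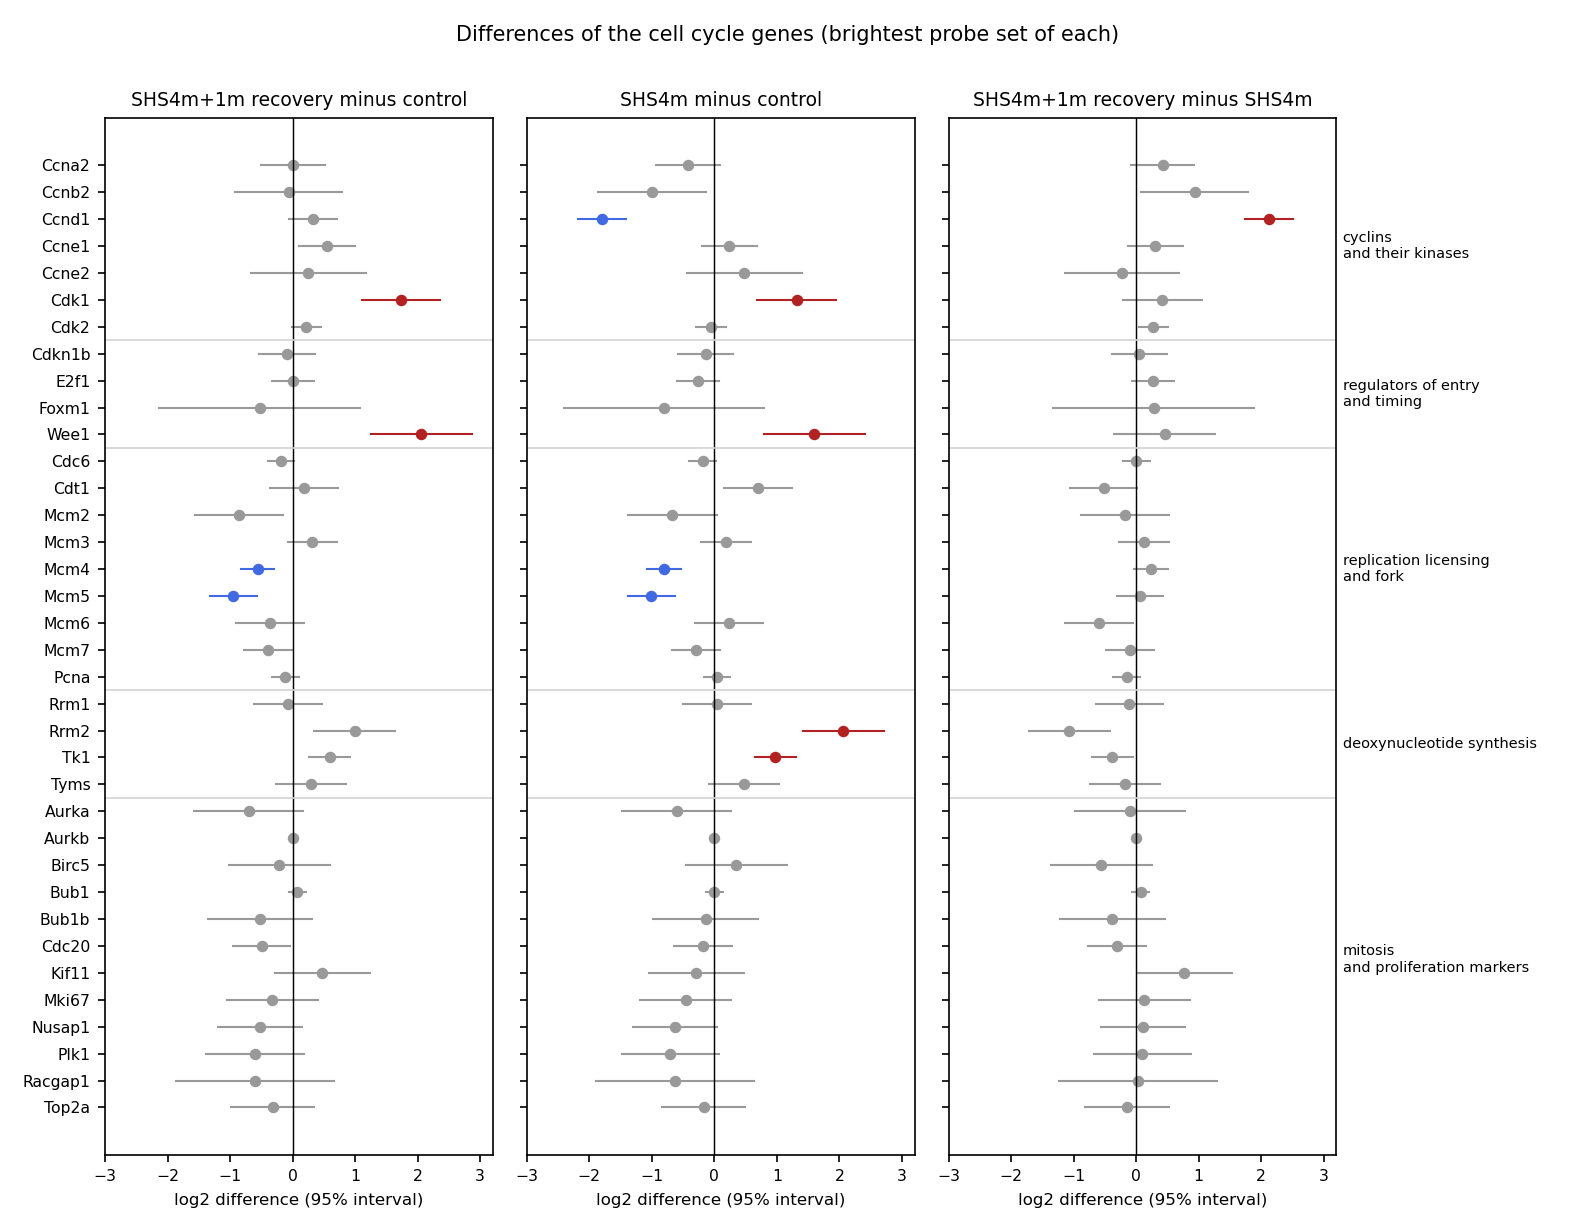
Log2 difference (x axis) of the 36 genes (y axis, by role) for SHS4m+1m recovery minus control, SHS4m minus control and SHS4m+1m recovery minus SHS4m. Points are limma estimates from 4 arrays per group with 95% intervals, red is called higher and blue called lower at an adjusted p under 0.05. Red or blue marks 4, 7 and 1 genes in the 3 panels.

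Cyclin D1 (Ccnd1), the mitogen-induced cyclin of G1, was low in the livers of SHS4m mice and not after recovery. Its signal (probe set 1448698_at) was 1507, 1654, 1082 and 1447 in SHS4m+1m recovery mice, 411, 297, 308 and 285 in SHS4m mice, and 992, 1169, 1391 and 961 in controls. All SHS4m arrays lay below every array of the other groups, and recovery and control arrays overlapped. Ccnd1 fell 3.47-fold in SHS4m mice relative to controls (log2 difference -1.79, standard error 0.171, limma adjusted p = 0.000721). It was 4.37-fold higher in recovery than in SHS4m mice (log2 2.13, standard error 0.171, adjusted p = 0.00102). Between recovery mice and controls the log2 difference was 0.33, with a 95% interval of -0.05 to 0.72 (adjusted p = 0.458). The other probe sets of Ccnd1, 1417420_at and 1417419_at, gave -1.89 and -2.29 for SHS4m mice against controls (adjusted p = 0.000723 and 0.000294). For recovery against SHS4m mice they gave 1.96 and 2.098 (adjusted p = 0.00137 and 0.00109). For recovery against controls they gave 0.08 and -0.19. All 3 probe sets of the gene were thus called in the same comparisons and the same directions.

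Cdk1, the kinase that drives entry into mitosis, was close to the floor in control livers and above it in both SHS groups. The signal of its only probe set (1448314_at) was 119.8, 130.02, 84.9 and 176 in SHS4m+1m recovery mice, 67.6, 78.7, 106 and 129 in SHS4m mice, and 34.3 and 54.4 on the control arrays of replicates 2 and 4. Control replicates 1 and 3 were at the floor. All arrays of both SHS groups lay above all control arrays, and the SHS groups overlapped with each other. Cdk1 rose 3.32-fold in recovery mice over controls (log2 1.73, standard error 0.279, limma adjusted p = 0.0171) and 2.49-fold in SHS4m mice over controls (log2 1.31, standard error 0.279, adjusted p = 0.0256). Because of the control arrays at the floor, both folds may show only part of the change. Recovery and SHS4m mice differed by 0.42, with an interval of -0.21 to 1.04 (adjusted p = 0.615). The call was lost without control replicate 1 or 3 in recovery mice (adjusted p up to 0.0525), and without control replicate 1, 2 or 3 or SHS4m replicate 68 or 69 in SHS4m mice (adjusted p up to 0.0725).

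Of the 7 cyclins and cyclin-dependent kinases measured, those other than Ccnd1 and Cdk1 were called in no comparison. Cyclin A2 (Ccna2), which acts in S phase and early mitosis, had signals of 98.5 to 125 in recovery mice, 70.2 to 118 in SHS4m mice and 84.5 to 157 in controls. Cyclin B2 (Ccnb2), a mitotic cyclin, had signals of 41.1 to 83.3 in recovery mice, from the floor (2 arrays) to 41.3 in SHS4m mice, and 44.8 to 159.9 in controls. Its log2 difference was -0.997 in SHS4m mice against controls (standard error 0.383, limma adjusted p = 0.201). The SHS4m arrays of Ccnb2 lay below all control arrays, the opposite order to that of Cdk1. Cyclin E1 (Ccne1), which takes cells from G1 into S phase, differed by 0.55 in recovery mice (adjusted p = 0.239) and by 0.24 in SHS4m mice against controls. Its relative cyclin E2 (Ccne2) differed by 0.25 and 0.48. Cdk2, the kinase of cyclins E and A, had signals of 441 to 532 in recovery mice, 350.1 to 458 in SHS4m mice and 364 to 470.0 in controls.

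**Figure D3:**
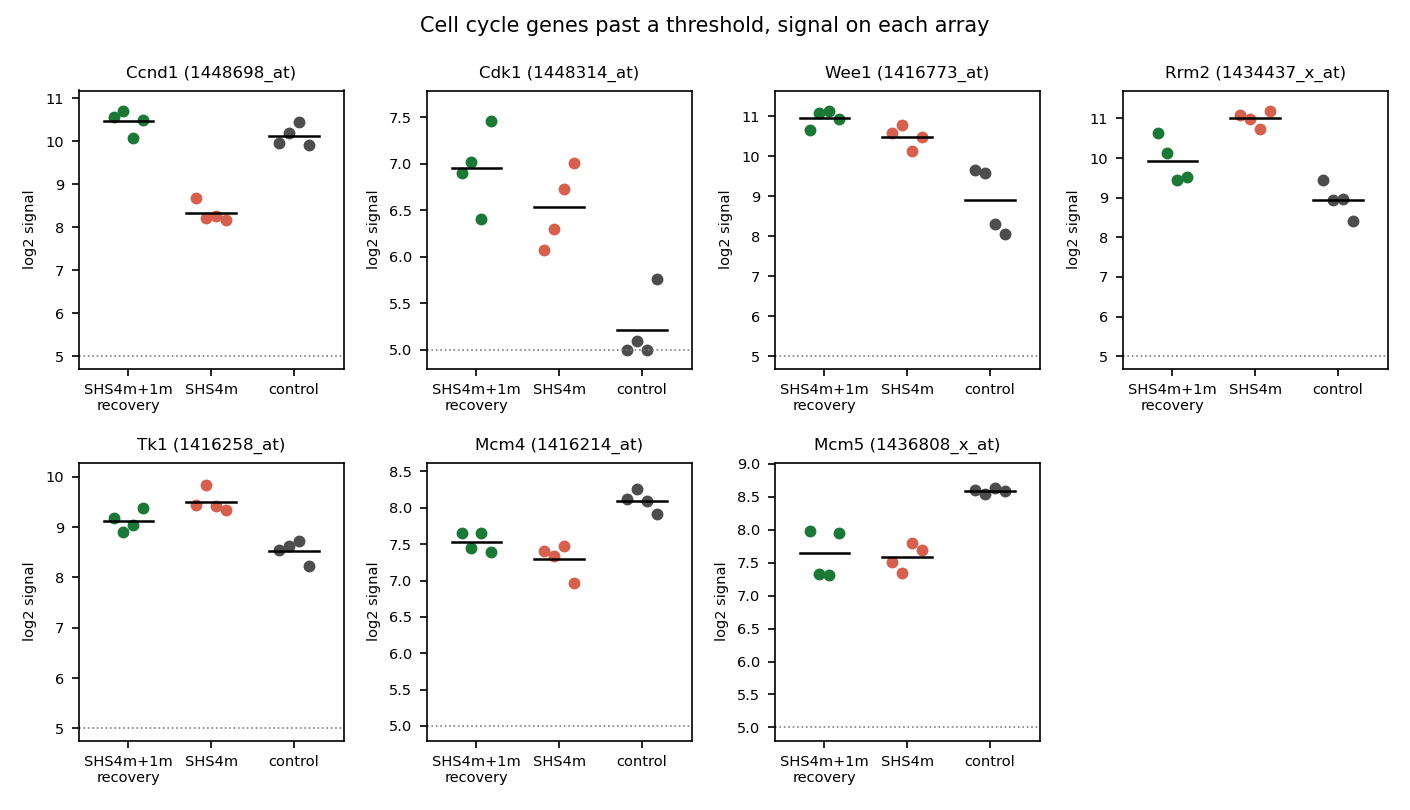
Log2 signal (y axis) on each array of the 7 genes past a threshold in at least 1 comparison, in SHS4m+1m recovery, SHS4m and control livers (x axis, 4 arrays each). Points are arrays, horizontal bars are group means and the dotted line is the floor. The SHS4m arrays of Ccnd1 lie below all others, both SHS groups lie above controls for Cdk1 and Wee1 and below them for Mcm4 and Mcm5, and for Rrm2 the SHS4m arrays lie highest.

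Wee1, the kinase that keeps CDK1 inactive, was higher in both SHS groups, as its target was. Its signal (1416773_at) was 1618, 2164, 2262 and 1967 in SHS4m+1m recovery mice, 1539.6, 1769, 1116 and 1436 in SHS4m mice, and 808, 775, 315 and 266 in controls. Every SHS array lay above every control array, and controls 3 and 4 lay lowest. The rise was 4.15-fold in recovery mice (log2 2.05, standard error 0.361, limma adjusted p = 0.024) and 3.02-fold in SHS4m mice (log2 1.59, standard error 0.361, adjusted p = 0.033). A dimmer probe set (1416774_at), at the floor on controls 3 and 4, gave 1.43 (adjusted p = 0.0692) and 1.09 (adjusted p = 0.107). The call was lost in recovery mice without control replicate 3 or recovery replicate 71, 72 or 73 (adjusted p up to 0.0649), and in SHS4m mice without control replicate 3 or 4 or any of SHS4m replicates 66 to 69 (adjusted p up to 0.0876). Wee1 is also an output of the circadian clock in mouse liver, so clock genes were read beside it. Tef, an output gene of the clock, had signals of 5821, 6417, 6160.2 and 5573 in recovery mice, 5516, 5459, 4754 and 5379 in SHS4m mice, and 3101, 3571, 2072 and 1845 in controls. Its log2 difference was 1.23 in recovery mice and 1.05 in SHS4m mice (adjusted p = 0.0145 and 0.0126). Per2, a repressor within the clock, gave 1.30 and 1.32 (adjusted p = 0.0449 and 0.0228). Of 6 clock genes read, Tef and Per2 were called in both comparisons with controls and none between the SHS groups. That is 33.3% in each comparison with controls, against 2.52% of all genes for recovery mice and 7.47% for SHS4m mice. At the threshold of the study 5 of the 6 passed in recovery mice and 4 in SHS4m mice against controls, and 1 between the SHS groups. Of all genes, 1.21%, 2.81% and 1.93% did. Controls 3 and 4 also had the lowest signals of Dbp among controls, 2376 and 1364 against 7321 and 7943 on controls 1 and 2, and the highest of Arntl, 363 and 434 against 142 and 100.3. Nr1d1 and Tef were also lower on controls 3 and 4 than on controls 1 and 2. Per1 and Per2 did not divide the controls this way, with 212, 858, 136 and 324 for Per1 and 239, 283, 256 and 125 for Per2 on controls 1 to 4. The sources used here do not give the time of day at which each mouse was killed. Its part in the difference of Wee1, or of any other gene described here, was not tested.

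The remaining regulators of entry were called in no comparison by their brightest probe sets. The inhibitor p27 (Cdkn1b), which holds cells in G1, had signals of 469.8 to 754 in SHS4m+1m recovery mice, 477 to 738 in SHS4m mice and 544 to 708 in controls. Its dimmer probe set (1419497_at) gave -0.83 in recovery mice (adjusted p = 0.0522) and -0.61 in SHS4m mice against controls (adjusted p = 0.0929), where the brightest gave -0.09 and -0.14. E2f1, the transcription factor of the G1 to S transition, differed by 0.00 and -0.27 (adjusted p = 1 and 0.424). Foxm1, which turns on mitotic genes, had signals from the floor to 211 in recovery mice, from the floor to 162 in SHS4m mice and from 71.7 to 212 in controls. It was at the floor on 1 recovery and 2 SHS4m arrays, and its intervals were the widest of the 36 genes, -2.13 to 1.08 and -2.41 to 0.80 against controls.

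Among the 9 genes of licensing and the replication fork, 2 subunits of the MCM helicase were lower in both SHS groups than in controls and none was called higher. Of all genes, 1.14% were called lower in recovery mice and 3.74% in SHS4m mice. Mcm5 (1436808_x_at) had signals of 253, 162, 159.8 and 248 in SHS4m+1m recovery mice, 183, 163, 222 and 207 in SHS4m mice, and 389, 374, 399 and 386 in controls. All SHS arrays lay below all control arrays, and controls differed little from each other. Mcm5 fell by 0.95 on the log2 scale in recovery mice (1.93-fold, standard error 0.167, limma adjusted p = 0.024) and by 1.01 in SHS4m mice (2.01-fold, standard error 0.167, adjusted p = 0.0089). Its second probe set (1415945_at) gave -0.52 (adjusted p = 0.487) and -0.07 (adjusted p = 1). The call in recovery mice was lost without control replicate 1, 3 or 4 or recovery replicate 71 or 72 (adjusted p up to 0.0683).

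Mcm4 (1416214_at) had signals of 201, 174, 201 and 169 in SHS4m+1m recovery mice, 169.6, 162, 178 and 124 in SHS4m mice, and 279, 306, 272 and 241 in controls. Again neither SHS group overlapped with controls. In SHS4m mice the log2 difference from controls was -0.80, a fall of 1.74-fold (standard error 0.12, limma adjusted p = 0.00565). In recovery mice it was -0.56 (1.48-fold lower, standard error 0.12, adjusted p = 0.048), and that call was lost without any 1 of 11 of the 12 arrays, SHS4m replicate 69 being the exception (adjusted p up to 0.117). A second probe set (1436708_x_at) gave -0.57 in SHS4m mice (adjusted p = 0.0727) and -0.54 in recovery mice (adjusted p = 0.134).

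Of the 6 helicase subunits Mcm2 to Mcm7, 5 had a difference below 0 in recovery mice (-0.95 to 0.32, median -0.48) and 4 in SHS4m mice against controls (-1.01 to 0.24, median -0.48), and these counts were the same after quantile normalization and after centring each array on its median. Over the 19 probe sets of the 6 genes, 15 were below 0 in each comparison, where 48.7% and 49.1% of all probe sets were. The 19 are repeated readings of 6 genes on the same arrays and are not independent. Probe set 1447756_x_at of Mcm6, below 0 in both comparisons, was at the floor on 11 arrays. Probe sets at the floor on all arrays, 7.2% of all, cannot lie below 0. Of the 19, 2 were called lower in recovery mice and 3 in SHS4m mice, against 1.19% and 2.87% of all probe sets. The remaining call in SHS4m mice was a probe set of Mcm7 (1439269_x_at, -0.58, adjusted p = 0.0467), whose brightest probe set gave -0.29 (adjusted p = 0.453). Mcm2 had signals of 133 to 272 in recovery mice, 134 to 388 in SHS4m mice and 296 to 407 in controls, with log2 differences of -0.86 (adjusted p = 0.252) and -0.67 (adjusted p = 0.315). Mcm6 differed by -0.36 and 0.24, and a dimmer probe set of it (1416251_at) by -1.03 in recovery mice (adjusted p = 0.0655). Mcm3 differed by 0.32 and 0.19, and its probe sets diverged. Those partly at the floor gave -0.88 and -0.98 (1426653_at, adjusted p = 0.205 and 0.102) and 0.56 and 0.80 (1426652_at, adjusted p = 0.408 and 0.131), with all SHS4m arrays below the controls for the one and above them for the other. Pcna, the sliding clamp of the replicative polymerases, differed by -0.11 (interval -0.33 to 0.10) and 0.04 (interval -0.17 to 0.25). Its signal was 1534 to 2123 in recovery mice, 2099 to 2142 in SHS4m mice and 1929 to 2285 in controls. The loading factor gene Cdt1 differed by 0.18 and 0.70 (adjusted p = 0.841 and 0.148), and Cdc6, which loads the helicase with it, was above the floor on 2 control arrays only.

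**Figure D4:**
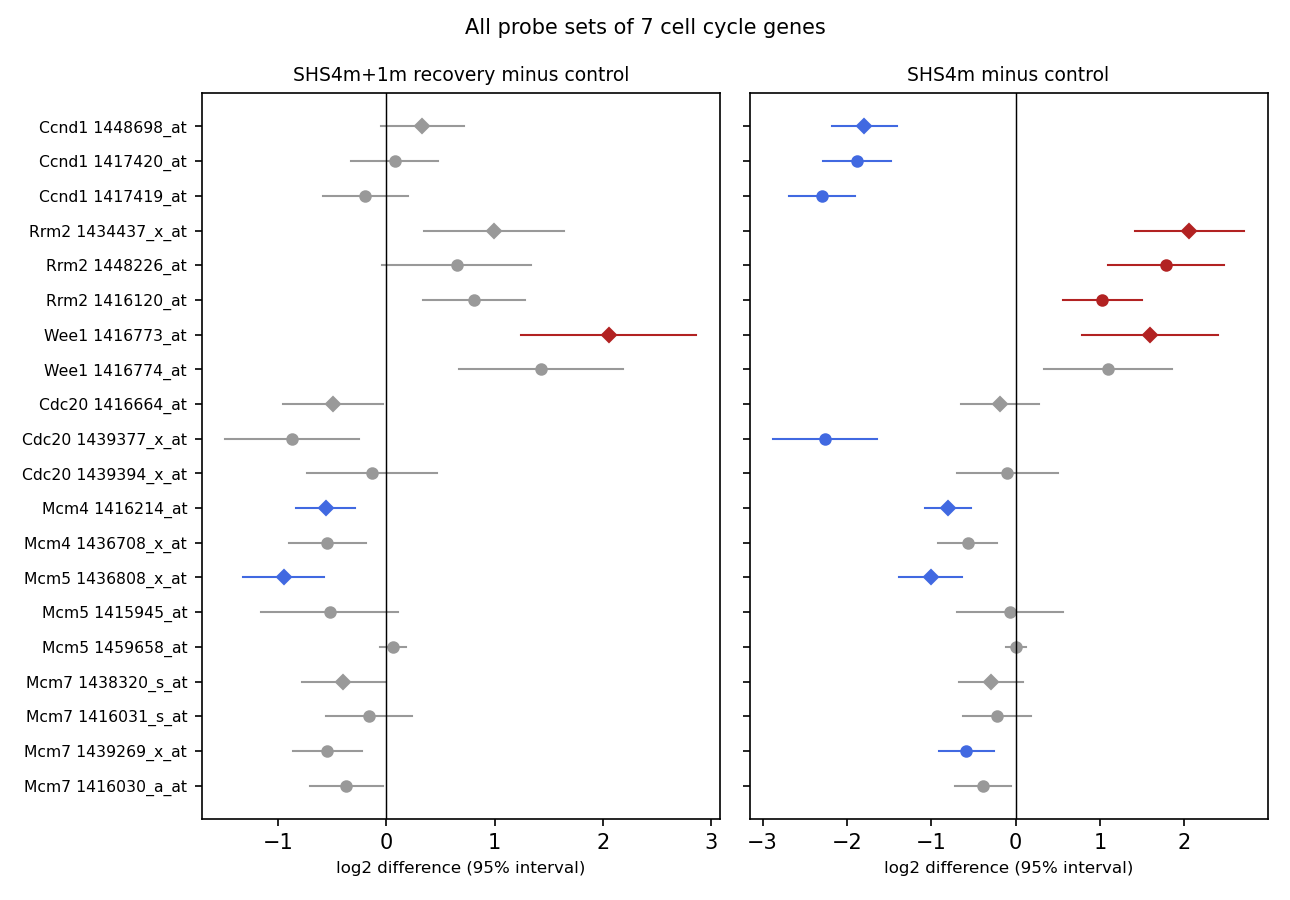
Log2 difference (x axis) of each probe set (y axis) of 7 genes with several probe sets, for SHS4m+1m recovery minus control and SHS4m minus control. Points are limma estimates from 4 arrays per group with 95% intervals, diamonds are the brightest probe set of a gene, red is called higher and blue called lower at an adjusted p under 0.05. All probe sets of Ccnd1 and Rrm2 were called in SHS4m mice, and of Wee1, Mcm4 and Mcm5 only the brightest.

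Of the 4 enzymes of deoxynucleotide supply, 2 were higher in SHS4m mice than in controls, where 3.73% of all genes were called higher. None of the 4 was called in the other comparisons. Rrm2, the regulated subunit of ribonucleotide reductase, had signals (1434437_x_at) of 1589, 1127, 702 and 732 in SHS4m+1m recovery mice, 2182, 2039.5, 1708 and 2341 in SHS4m mice, and 701, 494, 503 and 338 in controls. Every SHS4m array lay above every array of the other groups, and recovery arrays lay above all controls, the lowest of them by a small margin. Rrm2 rose 4.17-fold in SHS4m mice over controls (log2 2.06, standard error 0.289, limma adjusted p = 0.00413). Its log2 difference was 0.99 in recovery mice against controls (standard error 0.289, adjusted p = 0.136) and -1.07 in recovery against SHS4m mice (adjusted p = 0.099), and the second of these passed the threshold of the study. Probe sets 1448226_at and 1416120_at were also called in SHS4m mice, at 1.78 and 1.03 (adjusted p = 0.0104 and 0.0216). In recovery mice against controls they gave 0.65 and 0.81 (adjusted p = 0.408 and 0.095).

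Tk1, the thymidine kinase of the salvage pathway, had signals of 578, 479, 529 and 665 in SHS4m+1m recovery mice, 690.3, 918, 682 and 651 in SHS4m mice, and 373, 396, 426 and 299 in controls. All arrays of both SHS groups lay above all controls. Tk1 rose 1.97-fold in SHS4m mice over controls (log2 0.98, standard error 0.148, limma adjusted p = 0.00596). In recovery mice the log2 difference from controls was 0.59 (standard error 0.148, adjusted p = 0.0819), and between recovery and SHS4m mice it was -0.38 (adjusted p = 0.265). Rrm1, the constant subunit of the reductase, differed by -0.07 in recovery mice and 0.04 in SHS4m mice against controls, with intervals of -0.61 to 0.47 and -0.50 to 0.58. A dimmer probe set of Rrm1 (1448127_at) differed from this, with -1.20 in recovery mice (unadjusted p = 0.00781 from limma, adjusted p = 0.147), past the threshold of the study and with all recovery arrays below all controls, and -0.77 in SHS4m mice (adjusted p = 0.309). Thymidylate synthase (Tyms) was at the floor on 2 recovery, 1 SHS4m and 3 control arrays.

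None of the 12 genes of mitosis and proliferation was called, or passed the threshold of the study, by its brightest probe set in any comparison. The median log2 difference of the 12 was -0.41 in recovery mice and -0.24 in SHS4m mice against controls, and 0.02 between the SHS groups, with most signals near the floor. Mki67, which encodes the proliferation marker Ki-67, reached 56.0 in recovery mice, 45.4 in SHS4m mice and 93.7 in controls, and was at the floor on 6 of 12 arrays. Its log2 difference was -0.33 and -0.45 against controls (adjusted p = 0.743 and 0.577). Topoisomerase Top2a, which untangles chromosomes, had signals of 34.4 to 92.2 in recovery mice, 47.4 to 72.8 in SHS4m mice and 48.4 to 88.4 in controls. The polo kinase gene Plk1 reached 52.1 in recovery mice, 40.9 in SHS4m mice and 104 in controls, Nusap1, of the spindle, 47.8, 42.8 and 93.7, and the aurora kinase gene Aurka 76.7, 95.1 and 125. For Plk1, Nusap1 and Aurka the highest control array exceeded every SHS array, yet the groups overlapped and the adjusted p against controls was 0.33 to 0.534. Kif11, a spindle motor, and Birc5, of the chromosomal passenger complex, were at the floor on 4 and 5 arrays, Racgap1, needed for cytokinesis, on 5, and the checkpoint kinase gene Bub1b on 1.

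Cdc20, the activator of the anaphase-promoting complex, was read differently by its probe sets. The brightest (1416664_at) had signals of 82.8 to 128 in recovery mice, 94.5 to 163 in SHS4m mice and 117 to 189 in controls, with log2 differences of -0.50 and -0.19 (adjusted p = 0.325 and 0.736). The next (1439377_x_at), at the floor on 2 arrays, gave -2.26 in SHS4m mice against controls (adjusted p = 0.00225) and 1.39 in recovery against SHS4m mice (adjusted p = 0.0319). The dimmest probe set (1439394_x_at) gave -0.10 in SHS4m mice. Counting every probe set in place of the brightest, 4 of 84 were called in recovery mice against controls (4.76%, against 2.07% of all probe sets). It was 13, of 9 genes, in SHS4m mice against controls (15.5%, against 5.4%) and 4, of Ccnd1 and Cdc20, between the SHS groups (4.76%, against 2.54%).

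Beyond the 37 genes, 121 other cell cycle genes were read the same way, of which 117 had a probe set of their own. In recovery mice against controls 3 of the 117 were called (2.56%), 2 higher and 1 lower. In SHS4m mice against controls it was 14 (12%), 6 higher and 8 lower, and between recovery and SHS4m mice 9 (7.69%), 4 higher and 5 lower. The shares over all genes were 2.52%, 7.47% and 3.68%. Among 28 genes of G1 and its brakes, 1, 5 and 3 were called in these comparisons (3.57%, 17.9% and 10.7%). Among 37 of replication it was 2, 5 and 4 (5.41%, 13.5% and 10.8%), and among 52 of mitosis 0, 4 and 2 (0%, 7.69% and 3.85%). The 4 mitotic genes called in SHS4m mice were all lower, where 3.74% of all genes were called lower. Their share of 7.69% was near the 7.47% of all genes called in either direction.

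Among the brakes of G1, inhibitors of the cyclin-dependent kinases were called between the groups. The inhibitor p21 (Cdkn1a), which stops the cyclin-dependent kinases after stress, had signals of 98.3, 134, 67.8 and 166 in SHS4m+1m recovery mice, 574, 593, 641 and 369 in SHS4m mice, and 147, 192, 296 and 334 in controls. Every SHS4m array lay above every other array. Cdkn1a was 4.83-fold lower in recovery than in SHS4m mice (log2 -2.27, standard error 0.341, limma adjusted p = 0.0098). Against controls it gave 1.21 in SHS4m mice (adjusted p = 0.076) and -1.06 in recovery mice (adjusted p = 0.178). The related inhibitor p57 (Cdkn1c) had signals of 101, 90.0, 72.7 and 136 in recovery mice, 264, 197, 258 and 181 in SHS4m mice, and 150.3, 114, 111 and 122 in controls. It was higher in SHS4m mice than in controls (log2 0.85, adjusted p = 0.0391) and lower in recovery than in SHS4m mice (-1.19, adjusted p = 0.017). The Cdk4 and Cdk6 inhibitor p18 (Cdkn2c) was higher in both SHS groups, by 0.39 in recovery mice (adjusted p = 0.0182) and 0.69 in SHS4m mice (adjusted p = 0.000676), and lower by 0.30 in recovery than in SHS4m mice (log2 -0.30, adjusted p = 0.0474). Cyclin D3 (Ccnd3) rose by 0.70 in SHS4m mice (adjusted p = 0.0382) while cyclin D1 fell. Cyclin G1 (Ccng1) fell by 0.57 there (adjusted p = 0.0412), though its other probe sets gave -0.06 and -0.23. With their second brightest probe sets, Cdkn1a between the SHS groups (adjusted p = 0.0518) and Ccnd3 in SHS4m mice against controls were not called. The calls of Cdkn1a between the SHS groups and of Cdkn2c in SHS4m mice against controls held without any 1 array. That of Cdkn1c between the SHS groups was lost without SHS4m replicate 66 or recovery replicate 71 (adjusted p up to 0.0526), and that of Cdkn2c in recovery mice against controls without control replicate 1, 3 or 4 or recovery replicate 71 (up to 0.0556). The calls of Cdkn1c (up to 0.104), Ccng1 (up to 0.106) and Ccnd3 (up to 0.0989) in SHS4m mice were lost without any 1 of 8, 8 and 9 of the 12 arrays, and that of Cdkn2c between the SHS groups without any 1 of 10, all but control replicate 2 and recovery replicate 72 (up to 0.123).

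Of the replication genes, Mcm10, which helps the helicase to open the origin, followed the order of Ccnd1. Its signals were 4139, 5605, 4288 and 4107 in SHS4m+1m recovery mice, 1913, 2119.9, 1869 and 1997 in SHS4m mice, and 4561, 5172, 3616 and 3010.2 in controls. All SHS4m arrays lay below all others. The log2 difference was -1.02 in SHS4m mice against controls (standard error 0.164, limma adjusted p = 0.00782) and 1.19 in recovery against SHS4m mice (adjusted p = 0.00753), and a second probe set (1433407_at) gave -1.03 and 0.92 (adjusted p = 0.00875 and 0.0247). Geminin (Gmnn), which blocks a new round of licensing by binding CDT1, was higher by 0.45 in recovery mice (adjusted p = 0.0384) and 0.66 in SHS4m mice (adjusted p = 0.00369), with signals of 1226 to 1512, 1438 to 1719 and 889 to 1117 in recovery, SHS4m and control livers. The origin recognition gene Orc2 was lower in recovery mice, by 1.02 against controls (log2 -1.02, adjusted p = 0.0184) and 1.04 against SHS4m mice (log2 -1.04, adjusted p = 0.0136), while its other probe sets gave -0.32 and -0.13 against controls and were not called. The single-strand binding protein genes Rpa1 and Rpa3 moved in opposite directions between recovery and SHS4m mice, -0.48 for Rpa1 (adjusted p = 0.00404) and 0.57 for Rpa3 (adjusted p = 0.0286). The calls given for Mcm10, those of Gmnn in SHS4m mice, of Orc2 between the SHS groups and of Rpa1 held without any 1 array. Between the SHS groups, that of Orc2 was lost with its second brightest probe set and with only the 8 arrays compared (adjusted p up to 0.236). For Rpa1 the call was lost with its second brightest probe set and with a pseudocount of 16 in place of the floor (up to 0.0882). The call of Orc2 against controls was lost without control replicate 3 or 4 or recovery replicate 72 (adjusted p up to 0.056), that of Rpa3 without any SHS4m array or recovery replicate 70 or 72 (up to 0.0716), and that of Gmnn in recovery mice without any 1 of 10 arrays, all but control replicate 1 and SHS4m replicate 67 (up to 0.103).

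**Figure D5:**
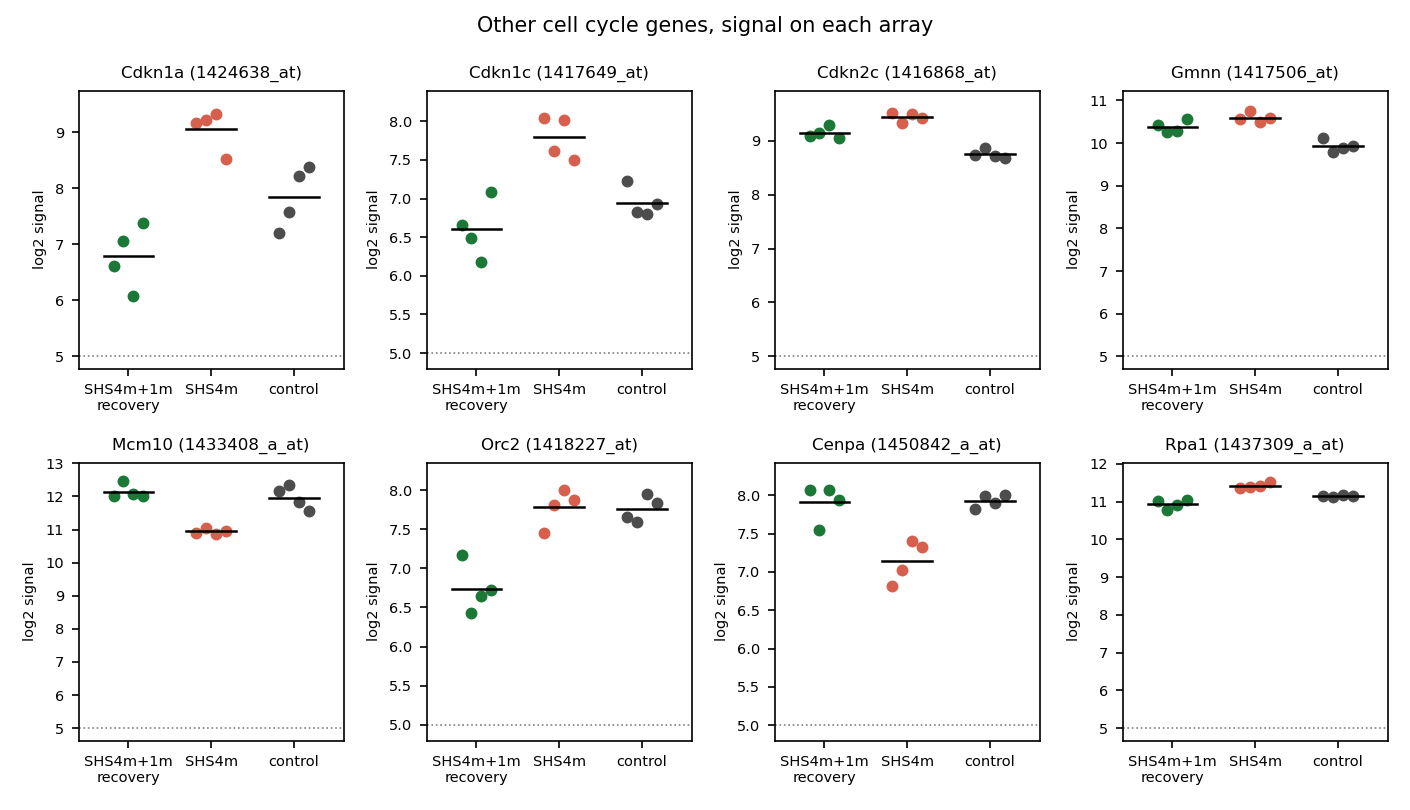
Log2 signal (y axis) on each array of 8 of the other cell cycle genes called in at least 1 comparison, in SHS4m+1m recovery, SHS4m and control livers (x axis, 4 arrays each). Points are arrays, horizontal bars are group means and the dotted line is the floor. The SHS4m arrays of Cdkn1a and Cdkn1c lie above all others and those of Mcm10 and Cenpa below all others.

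The 4 mitotic genes called lower in SHS4m mice than in controls were Ckap2l, Hmmr, Cenpa and Smc2. Cenpa, the histone variant of centromeres, had signals of 268, 187, 269.8 and 247 in SHS4m+1m recovery mice, 113, 131, 169 and 160.0 in SHS4m mice, and 226, 255, 239 and 256 in controls. It fell by 0.79 on the log2 scale in SHS4m mice (limma adjusted p = 0.0158) and was higher by 0.77 in recovery than in SHS4m mice (adjusted p = 0.0295), but a second probe set (1441864_x_at) gave -0.01 and -0.33, neither called. Ckap2l, a spindle protein, was at the floor on 3 of 4 SHS4m arrays (log2 -1.68, adjusted p = 0.0434), but its second probe set (1453769_at), near the floor in all groups, gave -0.18 (adjusted p = 0.675). Hmmr, also of the spindle, was at the floor on 2 SHS4m arrays (log2 -1.11, adjusted p = 0.0456), and its other probe sets were not called. Smc2, a subunit of condensin, gave -0.73 (adjusted p = 0.0388), and its other probe sets were not called. Ckap2 was at the floor on all 4 SHS4m arrays and had signals of 43.5 to 59.7 in recovery mice, so that it was at least 1.57-fold higher in recovery mice, taking the SHS4m arrays at the floor of 32 (adjusted p = 0.0228). The call of Cenpa in SHS4m mice held without any 1 array (adjusted p up to 0.0477). That of Cenpa between the SHS groups was lost without SHS4m replicate 66 or 67 or recovery replicate 70, 72 or 73 (up to 0.0766), and that of Ckap2 without any SHS4m array or recovery replicate 72 (up to 0.0603). Those of Ckap2l, Hmmr and Smc2 were lost without any 1 of 9, 10 and 8 of the 12 arrays (up to 0.116).

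Signs of RNA quality and of other cell types were read beside these values. Degraded RNA gives actin a higher signal at its 3′ end than at its 5′ end, and this ratio was 8.82 for recovery replicate 72, against 3.24 to 4.64 for the 11 remaining arrays. That array was the lowest recovery array for Ccnd1, Cdk1, Rrm2 and Cdkn1a and the highest for Wee1. Without it, 1 of the 36 genes was called in recovery mice against controls. The count was the same without control replicate 1 or recovery replicate 71, and lower without control replicate 3, arrays with ratios of 3.82, 4.36 and 3.83. The part of recovery replicate 72 in the differences was not tested otherwise. The summed signal of 6 hepatocyte markers (Alb, Apoa1, Ttr, Tat, Asgr1 and Cps1, none of them at the floor on all arrays) was 205900 to 317400 in recovery mice, 236400 to 262400 in SHS4m mice and 253300 to 291500 in controls. Asgr1 was called higher in both SHS groups (log2 0.43 in recovery mice, adjusted p = 0.0028, and 0.34 in SHS4m mice). That of 8 Kupffer cell and macrophage markers was 14510 to 20250, 13500 to 16950 and 17020 to 20990 in the same order of groups, so that all SHS4m arrays lay below all controls. Of these 8, Marco was called higher in SHS4m mice (1.90, adjusted p = 0.0137) and Clec4f lower (-0.51, adjusted p = 0.0173). No marker of B cells, T and NK cells, neutrophils, erythroid, endothelial or stellate cells or cholangiocytes was called in any comparison. The summed signal of 7 neutrophil markers was 759.6 to 832 in recovery mice, 726 to 1577 in SHS4m mice and 800.5 to 1125 in controls, with Camp at the floor on all 12 arrays. The part of other cell types in the cell cycle signals was not tested.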

How the data were processed

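The authors summarised each array in Affymetrix Expression Console and deposited linear probe set signals (intensity). The trimmed mean (2% off each end) of control replicate 1 was 500, and it is not given here for the other arrays. Which algorithm was used is not given in the sources. Genes were named from the platform annotation, 932 probe sets that name several genes were not used for any gene, and 64 control probe sets were left out. Signals under 32 were raised to 32, which affected 29.9% to 33.5% of each array, and log2 was taken. Of all probe sets, 7.2% were at this floor on all arrays. Differences were fitted with limma (version 3.58.1, R version 4.3.3) in 1 model of 3 groups, with p-values adjusted over 45037 probe sets, and the procedure was tested on simulated data. A gene was read by 1 probe set, the brightest of those naming only this gene by mean log2 signal over 12 arrays.

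Genes called or past the threshold of the study (unadjusted p under 0.05, 2-fold) were described on every array. Of the other cell cycle genes, up to 10 per comparison were named by size of change, and the 8 drawn were picked after their values were seen. Members and lists were chosen with earlier results of these data known, and the clock genes and the trended and robust prior were added after seeing the data. Alternatives were quantile normalization, centring on the median, other floors and filters, array weights, other probe sets, fewer arrays and leaving out each array. Replicates are 1 array per mouse, and the number of arrays limits the precision.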

Additional observations from a re-analysis of the deposited data

Results flagged for a closer look

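In 4 of 66 groups of 4 arrays, 1 array lay far from the other 3. Chance meets the rule used in about 1 of 20 groups, but this rate does not hold where arrays are tied at the floor, as for Cdk1 and Ckap2l here. Control replicate 4 had a signal of 54.4 for Cdk1, where the other controls were at or near the floor. SHS4m replicate 66 had 85.5 for Ckap2l, where the other 3 SHS4m arrays were at the floor, so that any value above the floor would have been flagged. Recovery replicate 71 had 5605 for Mcm10, and SHS4m replicate 67 had 918 for Tk1, each above the rest of its group.

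For 10 genes the SHS4m+1m recovery and SHS4m groups, both set against the same controls, differed from each other by limma (adjusted p under 0.05). After recovery Ccnd1 was higher than in SHS4m mice by 2.13 on the log2 scale, Mcm10 by 1.19, Cenpa by 0.77, Rpa3 by 0.57 and Ckap2, at the floor on all SHS4m arrays, by at least 0.65. The difference was -2.27 for Cdkn1a, -1.19 for Cdkn1c, -1.04 for Orc2, -0.48 for Rpa1 and -0.30 for Cdkn2c.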

How the results depend on the processing

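The count of cell cycle genes called in recovery mice against controls was 4 and ranged from 0 to 4 when 1 array was left out, at 0 without control replicate 3, 1 without control replicate 1 or recovery replicate 71 or 72, and 2 without control replicate 4 or recovery replicate 73. It was 2 with each array centred on its median, 0 with only the 8 arrays compared and 1 with the second brightest probe set. The 9 genes with a single probe set kept it in that last setting. The call left there was that of Cdk1, which has a single probe set, so no call in recovery mice against controls held on a different probe set. In SHS4m mice the count of 7 ranged from 5 to 7 without 1 array. Between the SHS groups it was 1 to 2 (2 without recovery replicate 70, with the probe set brightest in controls and with the second brightest). At the threshold of the study the ranges were 2 to 4 (4 without recovery replicate 70, 72 or 73 and with the second brightest probe set), 5 to 7, and 1 to 3 (1 with array weights and without recovery replicate 72 or 73).

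For the other cell cycle genes the counts without 1 array were 0 to 3 in recovery mice against controls (0 without control replicate 3 or 4, 1 without recovery replicate 72), 6 to 14 in SHS4m mice and 5 to 9 between the SHS groups (5 without SHS4m replicate 66). In SHS4m mice the count was 6 without control replicate 1 or SHS4m replicate 68, 7 without control replicate 3 or SHS4m replicate 66, 8 without control replicate 4 or SHS4m replicate 67, and 9 without control replicate 2, SHS4m replicate 69 or recovery replicate 70. With centring it was 9 in SHS4m mice. With a floor at the 25th percentile it was 1 in recovery mice and 7 in SHS4m mice, with a pseudocount of 16 it was 1 and 7, and 5 between the SHS groups. With only the 8 arrays compared it was 0 in recovery mice, and with the second brightest probe set it was 7 in SHS4m mice and 5 between the SHS groups. The value of Cenpa between recovery and SHS4m mice turned to -0.33 with its second brightest probe set. The causes of these shifts were not tested.

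Of 1449 values of single genes under alternatives, 1226 kept their status, whether called or not called, 218 lost a call, 4 gained one and 1 turned. The 1449 include many values that were not called in the main setting and had no call to lose. The share of 218 in 1449 is therefore not the rate at which calls were lost. Ccnd1, Rrm2 and Tk1 in SHS4m mice against controls, and Ccnd1 between the SHS groups, stayed called under every alternative run. Tk1 has a single probe set, so the alternatives with other probe sets did not change its reading. Mcm4 in recovery mice lost its call under 19 of 22 alternatives. Centring moved the median of all probe sets by 0.08 in both comparisons with controls, and the share of all calls that were higher was 57.3% in recovery and 60.9% in SHS4m mice against controls, where it was 42.4% and 46.7% without it. No paired analysis was made, because each array came from a different mouse and the labels pair no mice across groups.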
